A study of Rattus norvegicus with 12 samples.

Results

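The genes described here carry out or govern the copying of DNA and the division of the cell, and they were followed in rat long bone after ovariectomy (OVX) and after diets with blueberry (BB). They were picked by symbol alone. A probe set of the array was taken where its only gene symbol matched a search. The search covered the Mcm, Orc, Rfc, Gins, primase, Cenp, Aurora kinase and Bub1 families and DNA polymerases alpha, delta and epsilon. It also covered cyclins A, B and E, the numbered Cdc20, Cdc25 and Cdc45 families, and Mki67, Top2a, Pcna, Rrm1, Tyms, Cdk1, Plk1, Birc5 and Ube2c. This gave 101 probe sets for 76 of the 14217 genes measured, of which 38 act in DNA replication and 35 in mitosis. The symbols of 3 others fit by their letters only and were kept apart: Mcm3ap, a factor in the export of mRNA from the nucleus, Cdc73, a subunit of the Paf1 transcription complex, and Aurkaip1, a protein of the mitochondrial ribosome. The same search covered Cdc6, Cdc7, Rrm2 and Tpx2, for which no probe set carried the symbol alone.

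Replication begins at origins that the origin recognition complex marks and on which the Mcm2 to Mcm7 helicase is loaded during G1. Cyclin-dependent kinases then fire the helicase with Cdc45 and the GINS complex, and polymerases, primase, the PCNA sliding clamp and its RFC loader copy the strands. In mitosis cyclin B with Cdk1, the Polo and Aurora kinases and the centromere proteins drive the condensed chromosomes apart. Replication genes are classical targets of E2F factors and peak around S phase, while genes of mitosis peak in G2 and M through a promoter element named the cell cycle homology region (CHR). In bone the cells that divide most are blood cell precursors of the marrow, the proliferating zone of the growth plate and osteoblast precursors.

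All rats were female Sprague-Dawley rats, sacrificed at postnatal day 81, some weeks after surgery. The sham group was sham operated and ate a casein control diet, the OVX group was ovariectomized and ate the same diet, and both BB groups were ovariectomized. LTBB OVX rats ate the BB diet from weaning until sacrifice, and STBB OVX rats ate it for a short span after weaning and then the control diet. Each group had 3 arrays, each of RNA pooled from a few rats, so the spread between arrays is that between pools. The sample labels name the femur as the tissue, whereas the methods name the right tibia. Sham rats on a BB diet were not among the arrays, so both diets are seen after ovariectomy only.

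The values are log2 and centred: 0 is the median of a probe set over the 12 arrays. They give differences between arrays, and no level of one gene against another can be read from them, nor whether a marker was present at all. The sham arrays stood apart from the 9 arrays of ovariectomized rats over the whole table, with a standard deviation over genes of 0.846 to 0.891, against 0.126 to 0.198 in the others. Because those 9 are most of the 12 arrays, the median lies near them. The contrast is thus a distance from the ovariectomized groups and not a spread between sham pools. Between OVX and sham 58.9% of all genes passed an adjusted p under 0.05, 28.6% lower and 30.3% higher in OVX. Only the measured symbols of each marker list were counted, 8 of 12 erythroid and 5 of 11 neutrophil ones among them. Of the marker lists, 8 of 8 erythroid genes, 5 of 5 neutrophil genes and 9 of 9 skeletal muscle genes were lower in OVX, while 8 of 8 osteoblast genes, 5 of 5 osteoclast genes and 8 of 9 growth plate cartilage genes were higher. Ovariectomy and the cell make-up of the sham samples therefore cannot be told apart in any comparison with sham.

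The promoters of 4 members are shown since they hold the letters by which these genes are commonly read. They come from RefSeq (build GRCr8), run 5′ to 3′ over 250 bases up to the start of the transcript, and have in capitals each match, on either strand, to the E2F motif TTTNNCGC with each N a C or a G, to the CHR motif TTTGAA or TTCGAA, or to the CCAAT box. Tyms (chr9:120776084-120776333, minus strand) had the largest change between OVX and sham among the replication genes with a promoter in the table, Cdc25b (chr3:138859923-138860172, plus strand) had that among the mitosis genes, and Gins1 (chr3:160184670-160184919, plus strand) and Birc5 (chr10:103571896-103572145, plus strand) are the first by symbol in their class to hold the motif of that class.
Tyms: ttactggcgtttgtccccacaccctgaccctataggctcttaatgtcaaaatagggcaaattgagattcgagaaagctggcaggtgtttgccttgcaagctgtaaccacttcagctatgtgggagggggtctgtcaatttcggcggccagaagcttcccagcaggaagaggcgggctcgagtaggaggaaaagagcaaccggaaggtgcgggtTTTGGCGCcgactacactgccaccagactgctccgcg
Gins1: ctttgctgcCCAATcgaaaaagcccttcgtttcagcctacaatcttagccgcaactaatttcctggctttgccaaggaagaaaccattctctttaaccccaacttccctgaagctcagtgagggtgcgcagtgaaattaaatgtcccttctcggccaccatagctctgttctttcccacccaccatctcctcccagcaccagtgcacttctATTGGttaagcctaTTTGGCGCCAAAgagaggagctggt
Cdc25b: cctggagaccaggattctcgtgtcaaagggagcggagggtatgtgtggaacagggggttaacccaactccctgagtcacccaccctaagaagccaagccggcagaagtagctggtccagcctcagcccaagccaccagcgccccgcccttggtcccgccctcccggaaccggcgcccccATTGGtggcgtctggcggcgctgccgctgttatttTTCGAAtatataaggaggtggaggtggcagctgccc
Birc5: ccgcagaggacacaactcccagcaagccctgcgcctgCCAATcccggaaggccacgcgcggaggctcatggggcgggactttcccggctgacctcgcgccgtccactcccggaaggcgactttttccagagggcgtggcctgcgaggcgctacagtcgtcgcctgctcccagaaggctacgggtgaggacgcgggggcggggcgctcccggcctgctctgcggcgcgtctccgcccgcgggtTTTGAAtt
In Gins1 the capitals TTTGGCGCCAAA read as the E2F motif on both strands and were counted on each. TTCGAA in Cdc25b is likewise its own reverse complement. The shares of all members with these motifs follow the expression values.

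Most genes of replication and mitosis were lower in OVX than in sham bone. Of the 38 replication genes 33 were lower, 2 were higher and 3 did not pass, and of the 35 mitosis genes 30 were lower, 1 was higher and 4 did not pass (limma, adjusted p under 0.05 over all genes). That is 86.8% and 85.7% lower, beside 28.6% of all genes that were lower and 30.3% that were higher. The median log2 difference was -1.22 for replication and -1.29 for mitosis, beside 0.00 over all genes, and 45 of the 73 genes fell by more than 1 log2 unit, beside 8.38% of all genes. In 63 of the 73 genes each sham pool lay above each OVX pool, which 29.7% of all genes showed. The plot of each gene in each array shows sham apart from the 3 other groups.

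**Figure D1:**
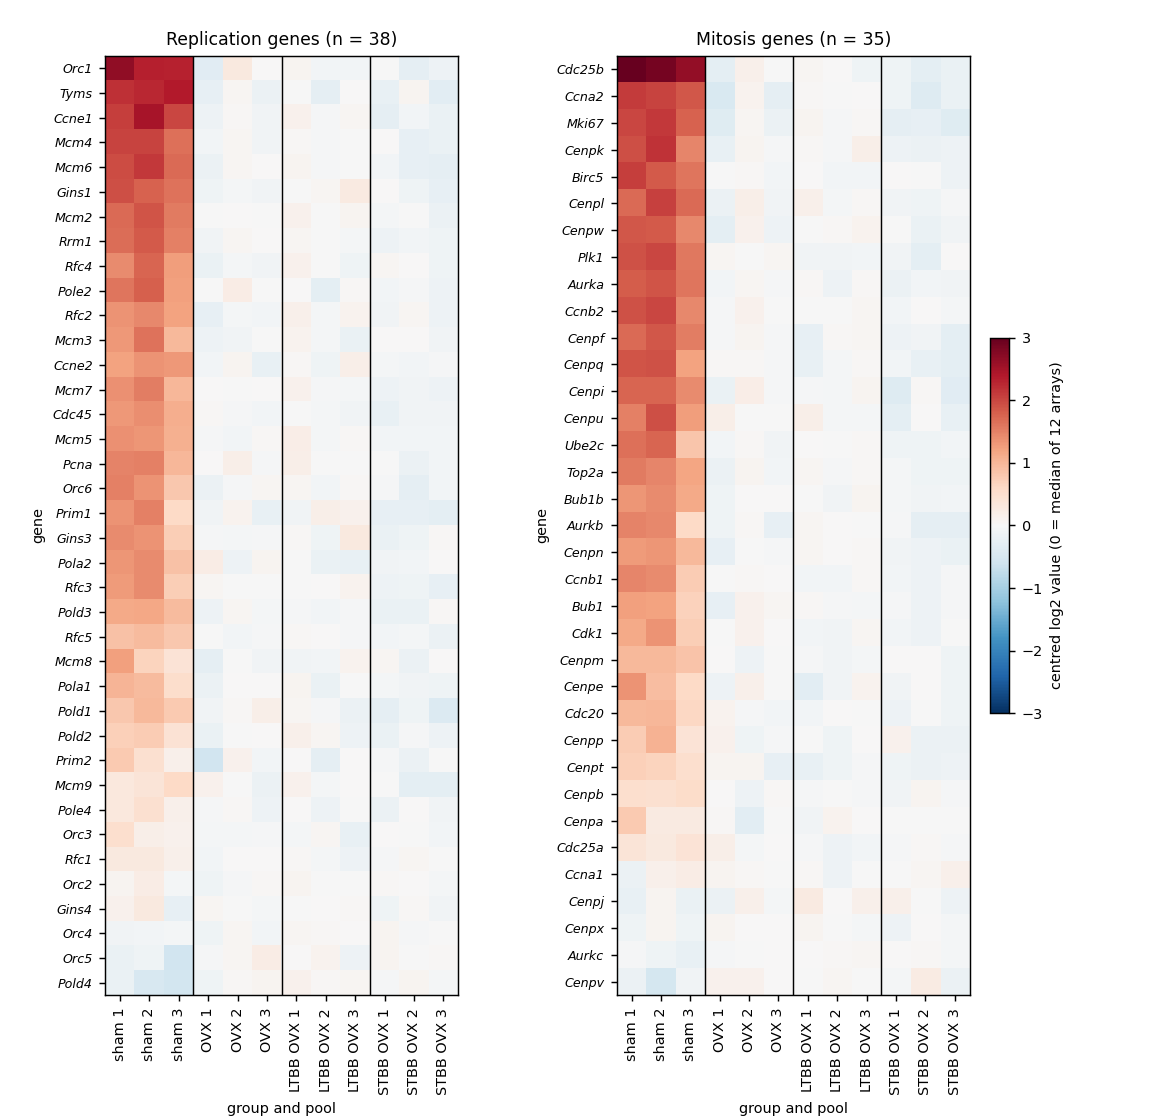
Centred log2 value (colour, 0 is the median of the 12 arrays) of the 38 replication genes and the 35 mitosis genes in each pool of the 4 groups, with genes in order of their difference between OVX and sham. The 3 sham columns are high for all but the genes at the foot of each panel, and the 9 columns of ovariectomized rats lie near 0.

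The origin recognition and licensing genes split. Orc1, the subunit whose amount varies with the cell cycle, stood at 2.65, 2.34 and 2.32 in the sham pools, at -0.34, 0.30 and 0.02 in OVX, at 0.09, -0.07 and -0.07 in LTBB OVX and at -0.02, -0.27 and -0.14 in STBB OVX. All sham pools were more than 2 log2 units above the highest pool of any ovariectomized group, and the fitted difference between OVX and sham was -2.44 (SE 0.14, adjusted p = 9.4e-09). Orc6, which binds the complex loosely, fell by 1.27 (SE 0.14). The other 4 subunits did not follow: Orc2 (-0.12) and Orc4 (0.03) did not pass, Orc3 fell by 0.31 (SE 0.10) and Orc5 rose by 0.39 (SE 0.11, adjusted p = 0.010). The probe sets of Orc3 gave -0.54 and -0.08. Orc5 no longer passed without the third OVX pool. Grouping Orc2 to Orc5 was done after their values were seen.

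The 6 subunits of the replicative helicase, Mcm2 to Mcm7, fell together, by 1.28 (Mcm5) to 1.95 (Mcm4). Mcm6 stood at 1.95, 2.11 and 1.70 in sham, at -0.17, 0.06 and 0.02 in OVX, at 0.08, -0.04 and -0.02 in LTBB OVX and at -0.08, -0.25 and -0.27 in STBB OVX. The lowest sham pool was far above all others, with a difference of -1.95 (SE 0.10) and a level 3.86-fold higher in sham. Mcm2 fell by 1.72 (SE 0.08). Mcm8 and Mcm9, relatives that act mainly in recombination, changed by -0.90 (SE 0.16) and -0.46 (SE 0.11), less than any of the 6; that contrast was drawn after the values were seen and was not tested. Of the 14 genes of origin recognition and licensing, 11 were lower and 1 was higher.

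Of the factors that activate the helicase, Gins1 stood at 1.94, 1.76 and 1.62 in sham and at -0.13, -0.05 and -0.10 in OVX, a difference of -1.87 (SE 0.10). Cdc45 fell by 1.29 (SE 0.08), with probe sets from -1.70 to -0.61, and Gins3 by 1.21 (SE 0.16). Gins4, of the same 4-subunit complex as Gins1 and Gins3, gave -0.07 (SE 0.11, adjusted p = 0.63), and its sham pools, at 0.13, 0.30 and -0.25, overlapped those of OVX.

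At the fork, 15 of 16 genes for polymerase subunits, primase, clamp and clamp loader were lower. Pcna, the sliding clamp, stood at 1.48, 1.52 and 0.998 in sham and at 0.01, 0.18 and -0.03 in OVX, a difference of -1.28 (SE 0.12, 2.43-fold). The third sham pool was the lowest of its group, yet well above all 3 OVX pools. The clamp loader fell in all 5 subunits, from Rfc4 (-1.60, SE 0.11) and Rfc2 (-1.47, SE 0.09) to Rfc1 (-0.26, SE 0.07), whose probe sets ranged from -0.74 to 0.13. Pole2, a subunit of the leading strand polymerase, fell by 1.47 (SE 0.13), and Pold1, the catalytic subunit of polymerase delta, by 0.82 (SE 0.10). The exception was Pold4, the small accessory subunit of polymerase delta, at -0.20, -0.48 and -0.55 in sham and -0.14, 0.04 and 0.07 in OVX. All OVX pools lay above all sham pools, and the rise was 0.40 (SE 0.09, adjusted p = 0.0025).

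Both genes of nucleotide supply were lower. Tyms, which makes thymidylate, stood at 2.20, 2.26 and 2.37 in sham, at -0.24, 0.06 and -0.17 in OVX, at -0.02, -0.27 and 0.02 in LTBB OVX and at -0.22, 0.08 and -0.32 in STBB OVX. Its difference was -2.39 (SE 0.11, adjusted p = 1.8e-09), and it is one of 3 replication genes whose highest sham pool was the third. Rrm1, the large subunit of ribonucleotide reductase, fell by 1.69 (SE 0.08). The cyclins E, which pair with Cdk2 at the entry to S phase, were also lower, Ccne1 by 2.26 (SE 0.11) and Ccne2 by 1.36 (SE 0.09). For Ccne2 the fall rests on 1 of 2 probe sets, which gave -2.53 and -0.20.

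**Figure D2:**
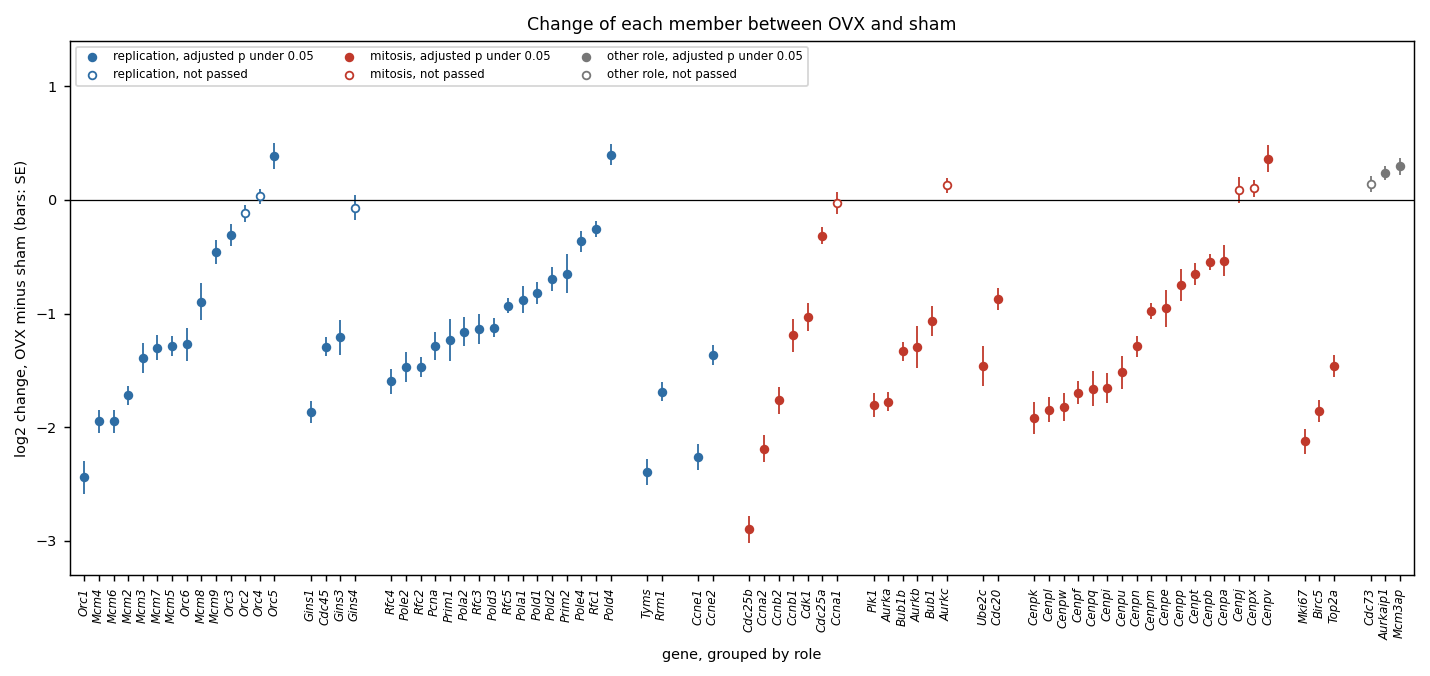
Fitted log2 difference between OVX and sham (points, bars are the SE of the limma fit, 3 pools per group) for each of the 76 genes, grouped by role from origin licensing on the left to centromere and chromosome proteins and the 3 genes of other role on the right. Filled points passed an adjusted p under 0.05; most lie between -0.5 and -2.5, and the few at or above 0 include Orc4, Orc5, Pold4, Aurkc, Cenpj, Cenpx and Cenpv.

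Among the drivers of mitotic entry, Cdc25b, a phosphatase that switches on Cdk1, had the largest difference of the 73 genes. It stood at 3.05, 2.86 and 2.63 in sham, at -0.30, 0.15 and -0.02 in OVX, at 0.06, 0.02 and -0.12 in LTBB OVX and at -0.13, -0.28 and -0.19 in STBB OVX. Sham was 7.46-fold above OVX, at -2.90 on the log2 scale (SE 0.12, adjusted p = 5.4e-10). Its relative Cdc25a, which acts earlier in the cycle, fell by only 0.31 (SE 0.07), and its probe sets gave -0.57 and -0.06. Ccna2 fell by 2.19 (SE 0.12), Ccnb2 by 1.76 (SE 0.12), Ccnb1 by 1.19 (SE 0.14) and Cdk1, their kinase, by 1.03 (SE 0.12, 2.05-fold). Ccna1, the cyclin A of the germ line, gave -0.03 (SE 0.10, adjusted p = 0.84), with probe sets on both sides of 0.

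Of the 6 mitotic kinases and checkpoint genes 5 were lower. Plk1, the Polo kinase, stood at 1.91, 2.01 and 1.58 in sham, at 0.05, -0.02 and 0.05 in OVX, at -0.12, -0.10 and -0.09 in LTBB OVX and at -0.11, -0.30 and 0.02 in STBB OVX, and fell by 1.80 (SE 0.11). Aurka, the Aurora kinase of the spindle poles, fell by 1.78 (SE 0.08), Bub1b, of the spindle checkpoint, by 1.33 (SE 0.08), and Aurkb, Aurora of the chromosomal passenger complex, by 1.29 (SE 0.19). Aurkc, the Aurora kinase of germ cells, gave 0.13 (SE 0.06, adjusted p = 0.10). Its sham pools lay below its OVX pools, though by little. Both genes that start anaphase were lower, Ube2c, the ubiquitin-conjugating enzyme of the anaphase-promoting complex, by 1.46 (SE 0.17) and Cdc20, its activator, by 0.87 (SE 0.09); the probe sets of Cdc20 ranged from -1.15 to -0.29.

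Of 17 genes named for the centromere 14 were lower. Cenpk stood at 1.94, 2.16 and 1.47 in sham and at -0.22, 0.08 and -0.04 in OVX, a difference of -1.92 (SE 0.14). Cenpl (-1.84, SE 0.11) and Cenpw (-1.82, SE 0.12), which like Cenpk belong to the constitutive centromere network, and Cenpf (-1.70, SE 0.10), a kinetochore protein made in G2, were close behind. Cenpa, the histone H3 variant that marks the centromere, fell less, by 0.53 (SE 0.13), with sham pools at 0.79, 0.26 and 0.26. Cenpb, which binds satellite DNA, fell by 0.55 (SE 0.07). Cenpj, a protein of the centriole, and Cenpx, which also acts with the Fanconi anaemia factor Fancm, did not pass, at 0.09 (SE 0.11) and 0.10 (SE 0.08). Cenpv rose by 0.36 (SE 0.12, adjusted p = 0.019), and it no longer passed without the second sham pool or without the first or the second OVX pool.

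The widely used marks of dividing cells were all lower. Mki67, the Ki-67 antigen, stood at 2.01, 2.12 and 1.76 in sham, at -0.37, 0.06 and -0.17 in OVX, at 0.07, -0.03 and 0.03 in LTBB OVX and at -0.27, -0.25 and -0.35 in STBB OVX. Its difference between OVX and sham was -2.12 (SE 0.11, 4.36-fold). Birc5 (survivin, of the chromosomal passenger complex) fell by 1.86 (SE 0.10) and Top2a, which untangles chromosomes, by 1.46 (SE 0.10). The 3 genes matched by their letters alone did not fall. Mcm3ap rose by 0.29 (SE 0.08) and Aurkaip1 by 0.24 (SE 0.06), and Cdc73 gave 0.14 (SE 0.07, adjusted p = 0.11).

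The 3 sham pools were not alike. The third was the lowest of the 3 in 63 of the 73 genes, 34 of 38 for replication and 29 of 35 for mitosis, and among the 4066 genes lower in OVX it was the lowest in 50.9%. The mean over the replication genes was 1.14, 1.17 and 0.85 in the sham pools, and over the mitosis genes 1.26, 1.28 and 0.95. In OVX these means ran from -0.10 to 0.02 and from -0.07 to 0.04, so that the lowest sham pool was still far above them. The erythroid markers followed the same order in sham, with means of 2.55 to 2.98 and the lowest in the third pool, against -0.31 to 0.15 in all 9 other arrays. Other lists varied too. Neutrophil (3.01, 2.71 and 2.47) and osteoblast means (-2.30, -2.38 and -2.49) were also lowest in the third sham pool. The skeletal muscle mean was highest there (3.38, 3.51 and 4.15). Erythroid markers had a median difference of -2.91 and neutrophil markers of -2.72, while 2 of 4 B cell markers were lower (median -0.46). Growth plate cartilage moved the opposite way, from -4.46 ± 0.09 (SD, n = 3) in sham to 0.09 ± 0.16 in OVX. The part of these cell types in the result was not tested, and in bulk bone fewer cells of a type cannot be told apart from less RNA per cell.

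**Figure D3:**
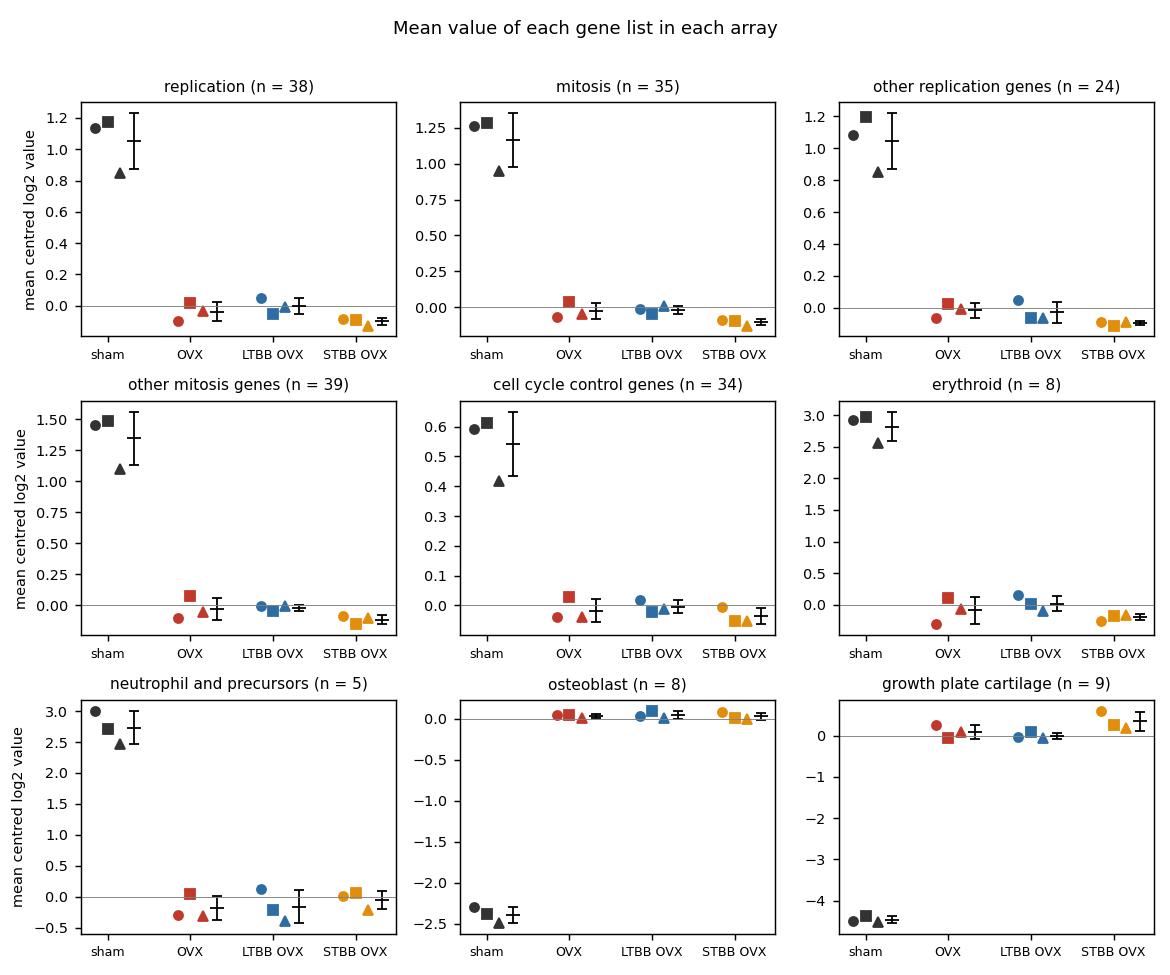
Mean centred log2 value of each gene list (vertical axis, scaled per panel) in each array; circles, squares and triangles are pools 1, 2 and 3, and the bar beside them is the mean with its SD over 3 pools. The replication, mitosis, erythroid and neutrophil lists are high in the 3 sham arrays, and osteoblast and cartilage markers are low in them.

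Genes of the same processes outside the symbol search gave like values. Of 24 other replication genes 20 were lower and none was higher in OVX (median -1.04), led by Cdt1, the loader of the Mcm helicase (-2.66, SE 0.10), Uhrf1, which keeps DNA methylation through S phase (-2.19, SE 0.10), and Dut, which clears dUTP (-1.81, SE 0.09). Of 39 other mitosis genes 37 were lower and none was higher (median -1.37), led by the securin Pttg1 (-2.56, SE 0.14), the separase Espl1 (-2.26, SE 0.10) and the condensin subunit Ncapd2 (-2.08, SE 0.11). No gene of either list was above 0. Of all genes 28.6% were lower, 30.3% were higher and 49.4% had a difference below 0. Both lists share the arrays with the 73 genes and are no separate evidence.

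Of 34 genes that control the cycle 23 were lower in OVX, beside 28.6% of all genes, and 6 were higher (17.6%), beside 30.3% of all genes (median -0.64). E2f8, an E2F factor of S phase, fell by 2.72 (SE 0.15) and Tfdp2, a partner of E2F factors, by 2.33 (SE 0.13). Cdkn1c, the CDK inhibitor p57, rose by 2.96 (SE 0.13, adjusted p = 6.8e-10). It stood at -2.81, -2.83 and -2.74 in the sham pools and between -0.16 and 0.70 in the 9 other arrays. The 5 others that were higher, named after their values were seen, were the CDK inhibitors Cdkn2a (2.13, SE 0.13) and Cdkn1a (1.31, SE 0.10), cyclin D1 (Ccnd1, 1.999, SE 0.07), E2f5 (0.80, SE 0.08) and Cdk4 (0.29, SE 0.09). Other inhibitors were lower, Cdkn2d by 1.52 (SE 0.11), Cdkn2c by 0.45 (SE 0.10) and Cdkn1b by 0.23 (SE 0.08).

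The next question was whether the BB diets changed these genes after ovariectomy. Against sham, which shares its arrays with the comparison above, LTBB OVX had 33 lower and 2 higher replication genes and 30 lower and 1 higher mitosis genes, and STBB OVX had 33 lower and 2 higher, and 30 lower and none higher. Of all genes 29.1% were lower and 29.2% higher in LTBB OVX, and 29% were lower and 29.3% higher in STBB OVX. The median over the 73 genes was -1.27 for OVX, and it was -1.20 with the long and -1.34 with the short BB diet. In the same order Cdc25b gave -2.90, -2.86 and -3.04, Mki67 gave -2.12, -1.94 and -2.25, and Pcna gave -1.28, -1.29 and -1.42. For each of these genes the 3 ovariectomized groups lay close together and far below sham.

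Between a BB diet and OVX no gene of the array passed an adjusted p under 0.05 in limma, a background of 0%. At an unadjusted p under 0.05, 2.31% of all genes differed between LTBB OVX and OVX, and 1 of the 73 genes did, the clamp loader subunit Rfc2 (0.19, SE 0.09, unadjusted p = 0.050, adjusted p near 1). Its OVX pools were at -0.25, -0.07 and -0.09 and its LTBB OVX pools at 0.14, -0.07 and 0.10, which overlap. The median over the 73 genes was 0.02, with 29 of them below 0, beside 52.8% of all genes. The differences ran from -0.20 (Pola2) to 0.21 (Ccna2). Of the 95% intervals 72 of 73 held 0, with bounds from -0.48 to 0.55, so a change by the diet as large as the median difference of -1.27 between OVX and sham lay outside each of them.

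STBB OVX was slightly below OVX in most of these genes, though no single gene passed. The median was -0.07, and 56 of 73 genes were below 0, beside 54.5% of all genes. It was -0.04 without the second OVX pool, with 49 genes below 0, and -0.10 without the first, with 60 below 0. After quantile normalization, which forces the arrays onto a common distribution, it was -0.17. That step widens the arrays of ovariectomized rats, whose standard deviations over genes were 0.126 to 0.198, beside at least 0.846 in sham. In 13 genes all STBB OVX pools lay below all OVX pools, beside 5.13% of all genes. The genes share 3 pools per group and are no replicates of a diet. The pool means over replication genes overlapped, from -0.10 to 0.02 in OVX and from -0.13 to -0.08 in STBB OVX. Those over mitosis genes did not, from -0.07 to 0.04 and from -0.13 to -0.09. Pold1 was the one gene with an unadjusted p under 0.05, which 2.89% of all genes had. It stood at -0.10, 0.04 and 0.17 in OVX, at 0.06, -0.04 and -0.16 in LTBB OVX and at -0.28, -0.14 and -0.41 in STBB OVX. The 3 STBB OVX pools were the lowest of OVX and STBB OVX, with a difference of -0.31 (SE 0.10, unadjusted p = 0.0068, adjusted p near 1). Next by p among mitosis genes was Cenpf (-0.19, SE 0.10, unadjusted p = 0.082) and among replication genes Mcm9 (-0.18, SE 0.11, unadjusted p = 0.12).

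STBB OVX was below LTBB OVX in 61 of 73 genes, beside 51.8% of all genes (median -0.08). The STBB OVX pools are those of the comparison above, so these counts are no separate evidence, and genes of the same pools are not replicates. In 18 genes all STBB OVX pools lay below all LTBB OVX pools, beside 5.63% of all genes, and in 1 gene they lay above, beside 5.3%. Those 18 include Mcm2, Mcm5, Mcm6, Mcm7, Pcna, Rrm1, Cdc25b, Ccna2, Top2a and Mki67. The gaps differed in size. The lowest LTBB OVX pool and the highest STBB OVX pool were at -0.0173 and -0.0187 for Pcna. They were at -0.1228 and -0.1278 for Cdc25b, and at -0.03 and -0.25 for Mki67. Mki67 gave -0.31 (SE 0.11, unadjusted p = 0.013), Pold1 -0.23 (SE 0.10, unadjusted p = 0.034) and Gins1 -0.23 (SE 0.10, unadjusted p = 0.039), the 3 genes with an unadjusted p under 0.05, beside 3.4% of all genes, and each had an adjusted p near 1. The number of genes with such an unadjusted p depended on the fit: 14 without the third sham pool (4.85% of all genes), 16 with array weights (6.87%), 14 in a fit of these groups alone (6.09%) and 23 after quantile normalization (9.3%), where the median was -0.20. All of them were lower in STBB OVX. The main fit takes its spread from all 4 groups, sham included, and these genes varied most between the sham pools. Gins1 stood at -0.01, 0.06 and 0.28 in LTBB OVX and at 0.01, -0.13 and -0.26 in STBB OVX, so its pools overlapped. The mean over replication genes was -0.00 ± 0.05 (SD, n = 3) in LTBB OVX and -0.10 ± 0.02 in STBB OVX, and over mitosis genes -0.01 ± 0.03 and -0.10 ± 0.02. The sham means were 1.05 ± 0.18 and 1.16 ± 0.19.

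**Figure D4:**
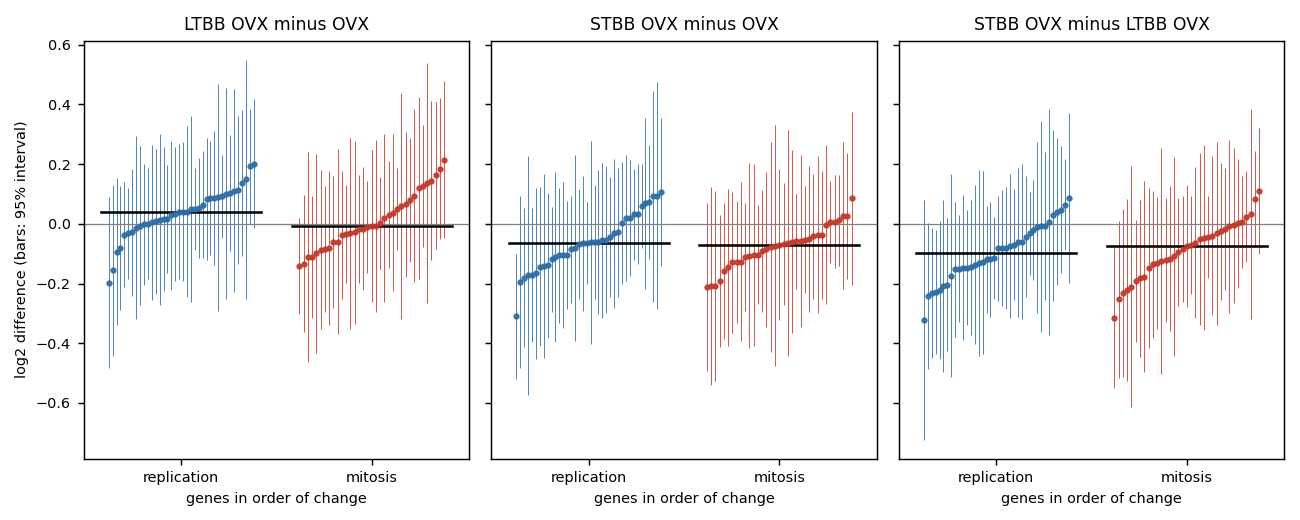
Fitted log2 difference (points) with its 95% interval (bars) of each replication and mitosis gene for 3 comparisons among ovariectomized rats, genes in order of difference within each group; black lines are medians. Most intervals hold 0, and the medians of the panels with STBB OVX lie at -0.06 to -0.10.

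Marker lists differed between these groups in both directions. Between STBB OVX and LTBB OVX 8 of 8 erythroid markers were below 0 (median -0.25), beside 51.8% of all genes. So were 5 of 5 osteoclast (median -0.04), 6 of 8 osteoblast (median -0.02) and 3 of 4 B cell markers (median -0.12). Above 0 were 8 of 9 growth plate cartilage markers (median 0.49) and 5 of 5 neutrophil markers (median 0.13). None passed the adjusted threshold. The part of these cell types in the small difference of the 73 genes was not tested. Of the 9 skeletal muscle markers all were above 0 (median 2.23), but their pools were far apart, from -3.47 to 0.47 in LTBB OVX. The fit without the sham arrays called none of the 73 genes past the adjusted threshold in the 3 comparisons, and in STBB OVX against LTBB OVX 13 of them had an unadjusted p under 0.05, all lower, beside 5.35% of all genes.

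The promoters of 64 of the 73 genes were in the table, in windows of 300 bases that reach 50 bases past the start. The E2F motif was present in 16 of 33 replication genes (48.5%) and in 2 of 31 mitosis genes (6.45%), beside 2.14% of 33469 promoters and 3.51% of those of genes on the array. The replication genes with it include Mcm2, Mcm3, Mcm5, Mcm6, Mcm7, Gins1, Tyms and Pole2, and the mitosis genes are Cdk1 and Cdc25a. For the CHR motif the order was the reverse, with 15 of 31 mitosis genes (48.4%) and 6 of 33 replication genes (18.2%), beside 19.7% of all promoters and 14.3% of those on the array. CCAAT was in 64.5% of the mitosis and 54.5% of the replication genes, beside 37.5% of all.

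Replication genes had a median difference between OVX and sham of -1.25 with the E2F motif and of -1.16 without it, and both sets span nearly the same range. Orc5, which rose, holds the motif, whereas Ccne1 and Rrm1, which fell, do not hold it in this window. Of the 15 mitosis genes with the CHR motif all were lower in OVX (median -1.66, range -2.90 to -0.53), and of the 16 without it 11 were lower (median -0.85). The 5 mitosis genes that were not lower, Cenpj, Cenpx, Cenpv, Ccna1 and Aurkc, are all without it, as are Cenpk, Cenpl and Aurka, which fell by more than 1.7. These are matches of letters, given as a description with no test.

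**Figure D5:**
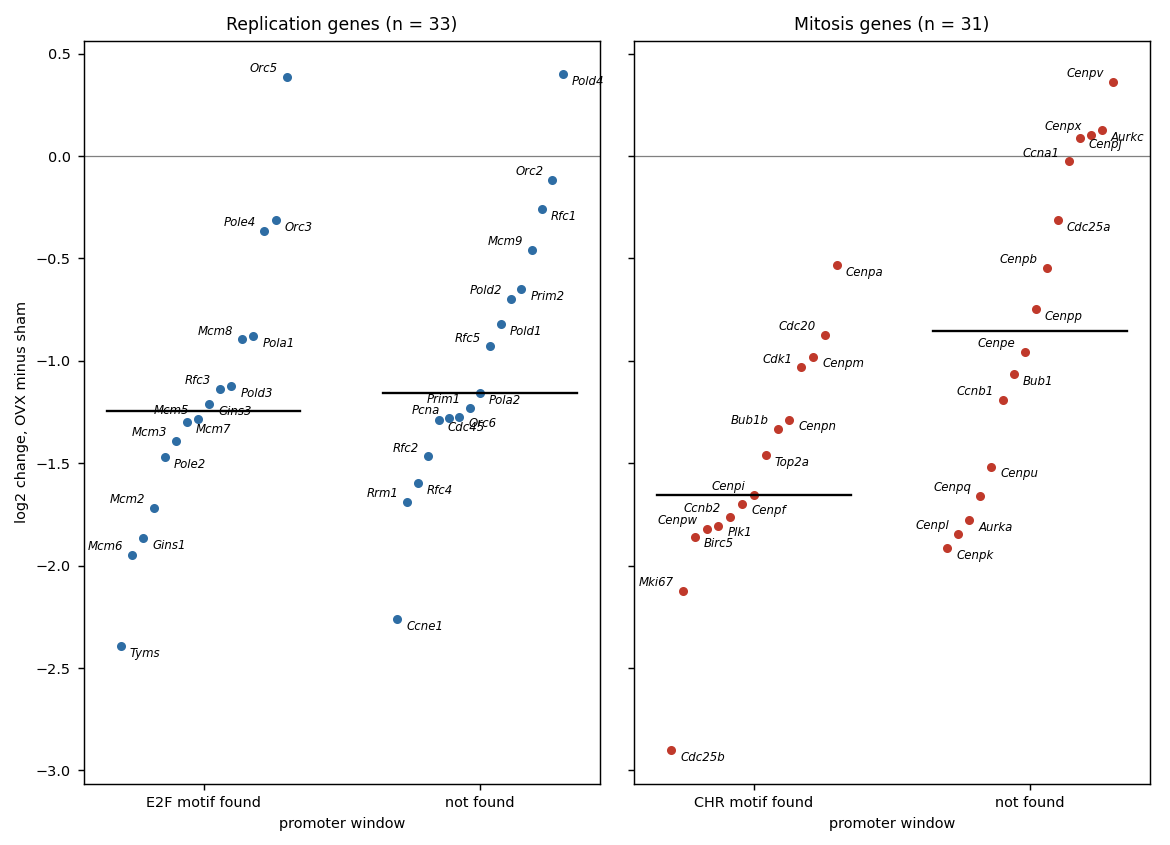
Fitted log2 difference between OVX and sham (vertical axis) of the 33 replication genes with or without the E2F motif and of the 31 mitosis genes with or without the CHR motif in their promoter window; each point is a gene and black lines are medians. The E2F sets overlap over almost their whole range, and the genes without the CHR motif include all mitosis genes at or above 0.

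When any single array was left out, OVX against sham had 34 to 37 replication and 30 to 32 mitosis genes called in either direction, LTBB OVX against sham 33 to 35 and 30 to 32, and STBB OVX against sham 33 to 35 and 30 to 31. The counts depended on the scaling: after quantile normalization of the 12 arrays, in OVX against sham, 30 of the 73 genes were lower and none was higher, beside 6.59% of all genes lower, and Orc1, Pcna, Cdk1 and the 3 genes that had risen were among those no longer called. The median moved from -1.27 to -0.48 with 66 genes below 0 in both, beside 49.4% of all genes as deposited. Genes with several probe sets were averaged, and of 18 such members 12 had all probe sets below 0, 3 had all above 0 and 3 had them on both sides.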

How the data were processed

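Total RNA of long bone was measured on Affymetrix rat genome arrays for 12 samples in 4 groups, grouped by their labels. The authors deposited log2 values from robust multiarray analysis (RMA) that GeneSpring had scaled within arrays and then within probe sets. GCOS and RMA are the tools in the submitters' processing notes, their versions not given in the sources used here. Since the 12 values of any probe set have their median at 0, levels are lost. The table holds 31099 probe sets, among them 57 controls, which were dropped. GEO's platform annotation gives 1 symbol for 20826 of the rest, several for 436 and none for 9780. Of the 20826, 20758 were matched by gene ID to RefSeq (GRCr8) and took the symbol given there. A gene is the mean of its probe sets. Another 10 probe sets that pair a symbol of the search with others were not named.

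The test was that of limma 3.58.1, run in R 4.3.3 (4 group means, 6 contrasts, moderated standard errors, Benjamini-Hochberg over 14217 genes, threshold 0.05) after the fit was tested on simulated data. No filter on low signal was possible. The number of arrays limits the precision, and 3 pools against 3 cannot go below p = 0.10 in an exact permutation test. The p-values cover the spread between pools.

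The symbols, roles, gene lists and alternatives were chosen with earlier results of these data known. Named are Mki67, Top2a, Pcna, Cdk1, Ccnb1 and Mcm2, up to 3 genes per role and per list with the largest difference between OVX and sham, genes that passed against the direction of most, the 3 smallest p-values of each comparison among ovariectomized rats and the symbols of other role; other genes were named after their values were seen. Promoter letters were searched in the RefSeq windows in Python 3.11.15.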

Additional observations from a re-analysis of the deposited data

How the results depend on the processing

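Called genes were counted again under each alternative. Quantile normalization of the 12 arrays moved the count of replication genes called from 35 to 15 in OVX against sham, to 12 in LTBB OVX against sham and to 22 in STBB OVX against sham, and that of mitosis genes from 31 to 15 in OVX against sham and to 14 in LTBB OVX against sham. By its construction it gives the sham arrays, with a standard deviation over genes of at least 0.846, the spread of all arrays. It likewise widens the arrays of ovariectomized rats, at 0.126 to 0.198. It also raised the genes with an unadjusted p under 0.05, all lower, to 12 of 73 in STBB OVX against OVX (7.55% of all genes) and 23 of 73 in STBB OVX against LTBB OVX (9.3%), with none past the adjusted threshold. The part of the widening in that rise was not tested. Median centring, array weights, fits of 2 groups, 1 probe set per gene, updated symbols and stricter thresholds kept the other counts of genes past the adjusted threshold within 1.5 times, and no named gene turned its direction. Counts at an unadjusted p under 0.05 moved further, with all such genes lower: in STBB OVX against LTBB OVX from 3 to 16 with array weights, 14 in the fit of 2 groups, 14 without the third sham pool and 13 without the sham arrays, and in STBB OVX against OVX from 1 to 4 with array weights, 5 in the fit of 2 groups, 5 without the first OVX pool and 4 without the sham arrays. Over all genes, STBB OVX against OVX had 40 calls in the fit of 2 groups, none of them among the 73 genes. Without single arrays, OVX against sham gave 34 to 37 replication and 30 to 32 mitosis genes. The pool number as a replicate block left 35 and 31. Deviations of same-numbered pools of different groups had correlations from -0.38 to 0.23 over 18 pairs, 6 of them over 0.1. Differently numbered pools gave -0.23 to 0.38 over 36 pairs, 8 of them over 0.1. Same-numbered pairs among sham, LTBB OVX and STBB OVX ran from 0.05 to 0.23, and those with OVX from -0.38 to 0.01. Whether the numbers pair pools across groups was not tested. Of 41 named genes 16 lost their call under quantile normalization, among them Orc1, Pcna, Cdk1, Cenpf, Cenpl and the 3 that rose, Orc5, Pold4 and Cenpv. Cdc25a lost it with 1 probe set per gene. In the main fit, intervals for differences among ovariectomized rats reached 0.24 to either side (median of the 73 genes). That fit takes its spread from all 4 groups, sham included. The median SD of a gene over sham pools was 0.19 for replication and 0.21 for mitosis genes. In the ovariectomized groups it was 0.06 to 0.11.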
